A study of Mus musculus with 10 samples.

Results

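RUNX1 binding was described at the genes of the 2 subunits of integrin αvβ6, Itgb6 and Itgav, both on mouse chromosome 2. Called peaks were taken when their summit lay in a window around each gene, from 60.38 to 60.61 Mb for Itgb6 and from 83.50 to 83.69 Mb for Itgav (GRCm39), which is the gene with about 50 kb on each side. Overlapping peaks (1 bp or more) from any of the 6 lists were joined into sites. This gave 37 sites at Itgb6 and 9 at Itgav, 46 of the 64286 sites of the whole series.

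The peaks came from chromatin immunoprecipitation sequencing (ChIP-seq) of RUNX1 in MLE cells, a culture of mouse large biliary epithelial cells, which line the larger bile ducts. The 3 TGFβ libraries were from cells exposed overnight to TGFβ at 10 ng/mL, and the 3 vehicle libraries from cells given vehicle. Libraries were numbered here within each treatment, and numbers 1 and 2 of each treatment belong to batch 1 and number 3 of each to batch 2. These numbers follow deposit order, do not pair libraries, and do not state separate cultures, so p-values measure the spread between libraries, which may be technical. The 4 input libraries were not analysed here. No label names a genetic change in any group, and peak lists do not measure expression, so the cell identity was not checked against marker genes.

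Integrins are pairs of an α and a β chain that span the cell membrane. Itgav encodes the αv chain, which pairs with several β chains, and Itgb6 encodes the β6 chain, which is made mainly by epithelial cells and pairs only with αv. TGFβ is secreted in a latent form, held by its propeptide, and αvβ6 frees it by binding that propeptide and pulling on it. In bile duct epithelium αvβ6 is known for its rise in injured and fibrotic liver. RUNX1 is a transcription factor that binds DNA with its partner CBFβ, and RUNX proteins can bind the SMAD proteins that carry the TGFβ signal.

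Lists differed in length, from 14733 to 42050 peaks, and their read depth is unknown. The lowest background recovered from fold and p-value was 11.3, 10.4 and 10.5 fragments in TGFβ libraries 1, 2 and 3. It was 10.7, 11.4 and 11.8 fragments in vehicle libraries 1, 2 and 3. The part of depth in the list lengths was not tested. TGFβ lists were longer, with 31480 peaks on average against 17533, and the ratio was 2.08 in batch 1 and 1.16 in batch 2. List length bears on every count below, and the main counts are set beside the share over all sites or the count in lists of equal length.

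For orientation, the 250 bases before the annotated start of each gene are given, from RefSeq on GRCm38.p6. That is another build than that of the peaks, so these positions cannot be set against peak positions. The Itgb6 entry is chr2:60722604-60722853 on the minus strand and the Itgav entry chr2:83724147-83724396 on the plus strand, each written 5′ to 3′ along the gene.

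Itgb6: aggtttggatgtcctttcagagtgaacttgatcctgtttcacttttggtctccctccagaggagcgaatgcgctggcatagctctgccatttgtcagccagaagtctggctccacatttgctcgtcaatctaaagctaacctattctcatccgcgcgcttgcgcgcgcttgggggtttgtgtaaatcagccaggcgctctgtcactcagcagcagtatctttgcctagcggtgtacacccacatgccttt

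Itgav: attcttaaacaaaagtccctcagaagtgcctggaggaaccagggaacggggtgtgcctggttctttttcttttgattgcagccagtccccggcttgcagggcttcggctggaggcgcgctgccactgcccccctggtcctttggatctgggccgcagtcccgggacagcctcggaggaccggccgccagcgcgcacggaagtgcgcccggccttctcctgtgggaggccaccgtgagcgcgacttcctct

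The Itgb6 stretch held 52.0% G and C and the Itgav stretch 64.4%. Neither held a match, on either strand, to the RUNX core motifs TGTGGT and TGCGGT, the AP-1 motif TGANTCA or the TEAD motif GGAATG, so no base is in capitals. The same was true of a second annotated Itgb6 start inside the gene. Among 32851 RefSeq promoters of this length, 18.6% held at least 1 of the RUNX motifs, 6.75% the AP-1 motif and 12.6% the TEAD motif. The absence of a match says only that these letters are not in these windows.

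Itgb6, the epithelial β6 chain, had a dense cluster of RUNX1 peaks in batch 1 and few or none in batch 2. TGFβ libraries 1 and 2 had 21 and 31 peaks in the window, and vehicle libraries 1 and 2 had 9 and 16. In batch 2, TGFβ library 3 had 4 peaks and vehicle library 3 had 0. Within each batch the TGFβ counts lay above the vehicle counts, but across batches the groups overlapped, since TGFβ library 3 lay below vehicle libraries 1 and 2. The mean was 18.7 ± 13.7 peaks with TGFβ against 8.33 ± 8.02 with vehicle (SD, n = 3 each).

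This difference of 10.3 peaks was not larger than the spread between libraries, which includes the gap between batches (two-sided exact permutation p = 0.4, smallest possible 0.1). Permuting within batches gave the most extreme arrangement, at the smallest p that 12 labelings allow (exact p = 0.17). Counts ordered this way in both batches were found in 19.0% of 8455 tiles of the same length, 230 kb, that held a peak. Lists of equal length, limited to the 14733 best peaks by −log10 p, gave 9 and 8 peaks with TGFβ and 9 and 8 with vehicle in batch 1, and 4 against 0 in batch 2. The larger number of Itgb6 peaks in batch 1 under TGFβ was thus no longer present once the lists were equally long. As a share of the full list, the window held 6.25 and 7.37 of every 10000 peaks with TGFβ and 6.11 and 7.41 with vehicle in batch 1.

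In batch 1 the Itgb6 window was rich in peaks under both treatments. A tile of 230 kb had a median of 2 and 3 peaks in TGFβ libraries 1 and 2 and of 1 in both vehicle lists of batch 1. At least as many peaks as at Itgb6 were found in 1.24% and 0.343% of tiles in the TGFβ lists, and in 2.67% and 1.01% in the vehicle lists. In TGFβ library 3 the share was 17.5%. Vehicle library 3 had no peak at Itgb6, as in 41.3% of tiles in that list.

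**Figure D1:**
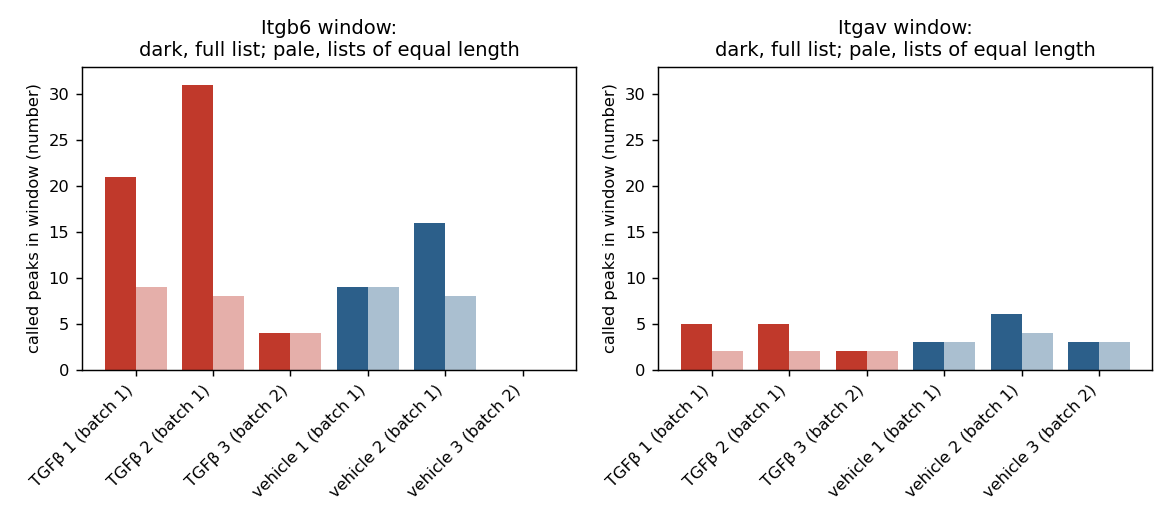
Bars give the number of called peaks with a summit in the Itgb6 window (left) and the Itgav window (right) in each of the 6 libraries, red for TGFβ and blue for vehicle. Dark bars are full lists and pale bars lists limited to 14733 peaks; at Itgb6 the pale bars of batch 1 are 9 and 8 under both treatments.

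The length covered by Itgb6 peaks followed the same order. TGFβ libraries 1, 2 and 3 covered 21.5, 28.7 and 1.31 kb of the window. Vehicle libraries 1 and 2 covered 6.05 and 10.4 kb, and vehicle library 3 none. The means were 17.2 ± 14.2 kb with TGFβ and 5.49 ± 5.22 kb with vehicle (SD, n = 3 each). The difference of 11.7 kb lay within the spread between libraries, which includes the gap between batches (two-sided exact permutation p = 0.3). Within batches the exact permutation p was 0.17, the smallest possible. In lists of equal length the difference was 5.28 kb (exact permutation p = 0.3). Itgb6 peaks were wider on average with TGFβ in batch 1, at 1023 and 925 bp against 673 and 650 bp, and 328 bp in TGFβ library 3. Over whole lists the median width was also larger with TGFβ in batch 1, at 620 and 735 bp against 523 and 597 bp.

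Itgb6 sites were numbered from 1 to 37 by rising position. Itgb6 is transcribed towards lower positions, so its 5′ end is at the upper end of the span that the window implies, about 60.43 to 60.56 Mb. Of the 37 sites, 28 lay in that span, 2 in the lower flank, towards the neighbouring gene Pla2r1, and 7 in the upper flank, towards Rbms1 (neighbours from the RefSeq gene order on GRCm38). A site in a flank can belong to either gene, and no exon or intron was assigned. No list called a peak over the 29.5 kb from 60545009 to 60574518, the stretch that holds the upper end of the implied span.

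Of the 37 Itgb6 sites, 16 were called in 2 or more libraries and 21 in 1 only, as were 32113 of all 64286 sites. The single-library sites had folds over the local background from 1.95 to 3.33. A TGFβ list alone called 19 of the 37, beside 35.6% of all sites, and a vehicle list alone called 2, beside 14.4%. TGFβ library 2, the longest list, called 30 of the 37, and 16 of these were called in 2 or more libraries. For TGFβ library 1 these numbers were 20 and 15, and for TGFβ library 3 they were 3 and 3. Vehicle libraries 1, 2 and 3 called 7, 15 and 0 of the 37. Sites called with TGFβ and in no vehicle list numbered 22 of 37, beside 51.6% of all 64286 sites. Sites called with vehicle and in no TGFβ list numbered 2, beside 14.6%. The remaining 13 were called under both treatments, beside 33.8%.

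TGFβ libraries 1 and 2 shared 15 of the 16 recurrent sites. Vehicle libraries 1 and 2 called 7 and 13 of these, TGFβ library 3 called 3 and vehicle library 3 called 0. No Itgb6 site had a call in every TGFβ list without a vehicle call, a pattern found at 0.619% of all sites, nor the opposite pattern, found at 0.0109%. None was called in all 6 lists, as 6.36% of all sites were. Within batch 1, sites 8, 14 and 28 had both TGFβ calls without a vehicle call, 3 of 37 beside 16.0% of all sites. The reverse pattern was found at 0 Itgb6 sites, beside 0.204%. Within batch 2, 3 Itgb6 sites had the TGFβ call alone, beside 15.7%, and 0 had the vehicle call alone, beside 12.5%.

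The Itgb6 site with the highest fold in each batch 1 list was site 23, at chr2:60518460-60521018, inside the gene span and about 40.5 kb below its upper end. In batch 1 the fold enrichment at its summit was 18.32 and 24.90 under TGFβ (libraries 1 and 2) against 7.97 and 9.69 under vehicle. Its peak was 2559 and 1974 bp wide under TGFβ against 831 and 1181 bp under vehicle. In batch 2 the fold was 3.03 and the width 248 bp in TGFβ library 3, and no peak was called in vehicle library 3. The treatments did not overlap in batch 1 in fold or width, and the batch 2 fold lay below every batch 1 fold. The summits of the 5 lists fell within 101 bp, from 60519366 to 60519467, so they marked the same position to within a peak width.

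Counts recovered from the deposited fold and p-value show the size of the signal at site 23. TGFβ libraries 1 and 2 had 225 and 283 overlapping fragments at the summit, and vehicle libraries 1 and 2 had 92 and 119. TGFβ library 3 had 34. The background at this summit was 1.00 times the lowest of the list in all 5 lists. In vehicle library 3 the lowest fold called at the lowest background was 1.99, with 25 fragments.

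**Figure D2:**
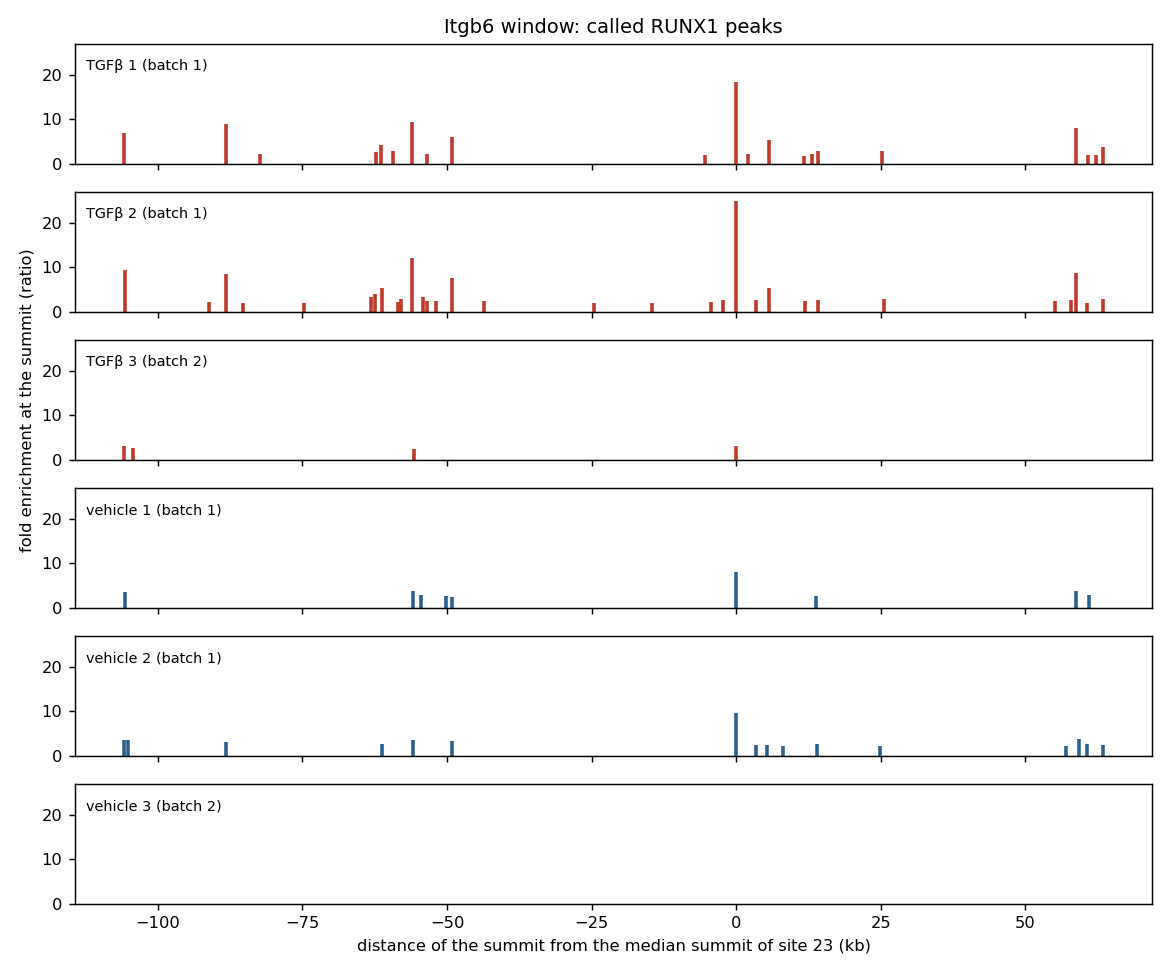
Each line is a called peak at Itgb6, placed by the distance of its summit from the median summit of site 23 in kb, with the fold enrichment as its height. The 6 rows are the libraries on 1 scale; the tallest line is 24.90 in TGFβ library 2, and the row of vehicle library 3 is empty.

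Site 13 of Itgb6, at chr2:60463013-60465537, lay in the part of the gene span nearer the 3′ end. In batch 1 its folds were 9.32 and 12.01 under TGFβ against 3.88 and 3.54 under vehicle, from 114, 136, 52 and 48 fragments in the same order. TGFβ library 3 had a fold of 2.52 and vehicle library 3 no call. The folds of batch 1 did not overlap between treatments here. The widths of the strongest peak did, at 2506 and 906 bp under TGFβ against 901 and 1456 bp under vehicle. Summits were spread over 389 bp, and TGFβ library 2 and vehicle library 1 each called 2 peaks inside the site.

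Site 1, at chr2:60412729-60415288, lay 16.3 kb outside the gene span, in the flank towards Pla2r1. Batch 1 folds were 6.89 and 9.29 under TGFβ against 3.53 and 3.58 under vehicle, and the fold in TGFβ library 3 was 3.18, the highest of the 3 Itgb6 sites in that list. The strongest peak was 2221 and 2500 bp wide under TGFβ and 808 and 840 bp under vehicle in batch 1, and 415 bp in TGFβ library 3. The background under vehicle was 1.23 and 1.41 times the lowest of the list, against 1.00 in both batch 1 TGFβ lists, and the fragments at the summit were 84 and 105 under TGFβ against 49 and 60 under vehicle. The part of the background in the fold difference at site 1 was not tested. Sites 1, 13 and 23 were the only Itgb6 sites called in batch 2, and each was called in every list but vehicle library 3. That pattern was found at 3.71% of all sites.

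Site 34, at chr2:60577614-60579555 in the flank towards Rbms1, had TGFβ folds of 8.16 and 8.64 against vehicle folds of 3.76 and 3.83, all in batch 1. Its widths were 1760 and 1448 bp under TGFβ and 1279 and 1682 bp under vehicle, which overlap although the folds do not. Site 16, at chr2:60469174-60471394, had TGFβ folds of 5.99 and 7.51 against 2.68 and 3.37 under vehicle. Vehicle library 1 called 2 peaks at site 16. The peak that represents the site, with the fold of 2.68, had its summit about 1 kb from the others, which gives a spread of 1041 bp. The other peak of vehicle library 1, with a fold of 2.44 and a width of 459 bp, had its summit beside those of the other batch 1 lists. All batch 1 lists thus had a peak at that position. Both sites were called in batch 1 only, in all 4 of its libraries.

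Not every shared site followed this order. TGFβ folds of 2.92 and 2.72 at site 29 overlapped the vehicle folds of 2.74 and 2.58. Site 35, in the flank towards Rbms1, went the other way, with TGFβ folds of 2.05 and 1.92 below the vehicle folds of 2.99 and 2.67. There the background was 1.16 and 1.40 times the lowest of the list in the TGFβ lists and 1.00 in the vehicle lists. Site 35 had 28 and 29 fragments at the summit under TGFβ against 34 and 32 under vehicle. Its summits were spread over 428 bp and its peaks were 279 to 461 bp wide. The lists thus do not all mark 1 position there. The part of the background in the lower folds was not tested.

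All 4 batch 1 libraries called 7 of the 37 Itgb6 sites, beside 17.7% of all sites. At these 7, both TGFβ folds lay above both vehicle folds at 5, overlapped at 1 and lay below at 1. Over all 11360 sites shared by these 4 lists, the TGFβ folds lay above at 68.7% and below at 1.60%. The 5 of 7 at Itgb6 is near that background. The strongest peak was wider in both TGFβ than in both vehicle lists at 4 of the 7, beside 60.8% of all such sites. Vehicle library 2 shared 12 Itgb6 sites with both batch 1 TGFβ lists, and both TGFβ folds lay above its fold at 11 of these, beside 70.8% of 16099 such sites. A fold is the peak caller's value within a list, so these orders describe the lists and were not tested.

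A further 5 Itgb6 sites were called in both batch 1 TGFβ lists and in vehicle library 2 but not in vehicle library 1. The strongest, site 3, at chr2:60430442-60431994 near the 3′ end of the implied span, had TGFβ folds of 8.92 and 8.50 against 3.04 in vehicle library 2. Its TGFβ folds were close to those of site 34, yet vehicle library 1 had no call there. Site 26 had 5.43 in both batch 1 TGFβ lists and 2.42 in vehicle library 2, and site 9 had 4.24 and 5.43 against 2.71. At sites 30 and 37 the TGFβ folds ran from 2.85 to 3.75 and the vehicle library 2 folds were 2.20 and 2.42. Site 25 was called in TGFβ library 2 and vehicle library 2 only, with 33 and 30 fragments at the summit.

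A vehicle call was absent at 3 recurrent Itgb6 sites. In TGFβ libraries 1 and 2 the fold was 2.68 and 3.94 at site 8, 2.20 and 2.47 at site 14, and 1.78 and 2.48 at site 28. For scale, the lowest fold called at the lowest background was 2.05 and 2.00 in the batch 1 vehicle lists. At site 28 the background was also raised, to 1.70 and 1.53 times the lowest of the list. A missing call says only that the signal did not pass the threshold of that list.

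**Figure D3:**
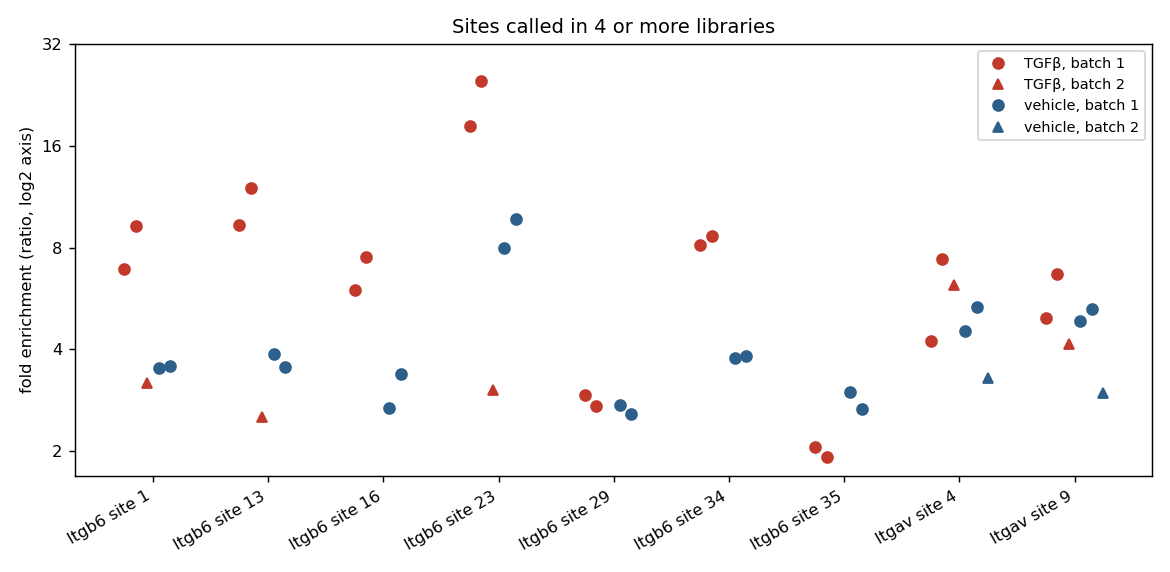
Fold enrichment is plotted on a log2 axis for every site called in 4 or more libraries, with red for TGFβ, blue for vehicle, circles for batch 1 and triangles for batch 2. At 5 of the 7 Itgb6 sites the red circles lie above the blue circles, and at both Itgav sites they overlap.

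Itgav, the αv chain shared by several integrins, had fewer RUNX1 peaks than Itgb6 in all 4 batch 1 lists, and the mean number was the same under both treatments. The counts were 5, 5 and 2 peaks under TGFβ and 3, 6 and 3 under vehicle, in library order. A tile of 190 kb had a median of 2, 3 and 1 peaks in the TGFβ lists and of 1 in each vehicle list, so Itgav lay above the median tile in every list. At least as many peaks as at Itgav were found in 27.4%, 34.3% and 38.2% of 9869 tiles in the TGFβ lists, and in 21.2%, 11.2% and 17.5% in the vehicle lists. Both treatments had a mean of 4 ± 1.73 peaks (SD, n = 3 each), with full overlap of the groups (difference 0, two-sided exact permutation p = 1). In lists of equal length TGFβ libraries had 2 peaks each and vehicle libraries 3, 4 and 3, a difference of -1.33 (exact permutation p = 0.1, the smallest possible), so the vehicle counts lay above all TGFβ counts in that setting. Of 8577 tiles of 190 kb with a peak in these shorter lists, 0.793% had every vehicle count above every TGFβ count. In the full lists the Itgav groups overlapped, and the counts also depend on how broad peaks were split, as described for site 4. Sites 4 and 9 were still called in all 6 lists of equal length. The 3 peaks of vehicle library 1 were 2 at site 4 and 1 at site 9, so they held no site that the TGFβ lists lacked.

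Covered length at Itgav was 5.83, 8.02 and 1.34 kb under TGFβ and 1.65, 4.44 and 1.05 kb under vehicle, in library order. Within each batch the TGFβ lengths lay above the vehicle lengths. The means were 5.06 ± 3.41 kb with TGFβ and 2.38 ± 1.81 kb with vehicle (SD, n = 3 each), a difference of 2.68 kb (two-sided exact permutation p = 0.3). Within batches the exact permutation p was 0.17, the smallest possible. Most of the length in the batch 1 TGFβ lists was a single broad peak of 4316 and 4902 bp at site 4, and without peaks over 2000 bp the difference turned to -0.39 kb.

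Of the 9 Itgav sites, 2 were called in all 6 lists, 1 in both batch 1 TGFβ lists only and 6 in a single list. The pattern of a call in all 6 lists was found at 6.36% of all sites, and none of the 37 Itgb6 sites had it. Both TGFβ calls without a vehicle call in batch 1 were found at 16.0% of all sites. Single-list sites had folds from 1.81 to 3.55. Of these, 3 came from a TGFβ list, beside 35.6% of all sites, and 3 from a vehicle list, beside 14.4%. No Itgav site had a call in every TGFβ list without a vehicle call. The site called in both batch 1 TGFβ lists, site 1, lay 5.1 kb outside the gene span on the side of Zc3h15, with folds of 2.59 and 3.33.

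Site 4 of Itgav, at chr2:83552017-83556974, lay about 5.0 kb inside the lower end of the implied gene span of 83.55 to 83.64 Mb. Itgav is transcribed towards higher positions, so this is the end that holds its 5′ end. Since the window gives the span only to the nearest 10 kb or so, the distance to the start of the gene was not measured. In batch 1, TGFβ folds of 4.22 and 7.38 overlapped the vehicle folds of 4.54 and 5.34. In batch 2 the fold was 6.21 with TGFβ and 3.28 with vehicle, from 85 and 46 fragments at the summit. A higher fold with TGFβ was found at 70.9% of the 7713 sites shared by the batch 2 lists. Summits of the 6 lists lay within 401 bp.

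Itgav site 4 was a broad joined site of 4958 bp, and the lists cut it differently. Both batch 1 TGFβ lists called 1 peak across it, while vehicle libraries 1 and 2 called 2 and 3 narrower peaks. The widths of the strongest peak were 4316 and 4902 bp with TGFβ and 1027 and 1723 bp with vehicle in batch 1, and 865 and 552 bp in batch 2. This site thus added 1 peak to each TGFβ count and 2 and 3 peaks to the batch 1 vehicle counts.

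Site 9 of Itgav, at chr2:83642357-83643389, lay 3.0 kb beyond the upper end of the implied span, on the side of the neighbouring gene Fam171b. Batch 1 folds were 4.96 and 6.69 under TGFβ against 4.86 and 5.26 under vehicle, which overlap, and batch 2 folds were 4.16 against 2.97. Widths were 583, 1033 and 471 bp under TGFβ and 373, 618 and 226 bp under vehicle, in library order. Summits of all 6 lists lay within 163 bp. Between these sites no list called a peak over the 53.4 kb from 83588993 to 83642356, and the calls farthest into the gene span, at sites 7 and 8, were from TGFβ library 2 alone.

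**Figure D4:**
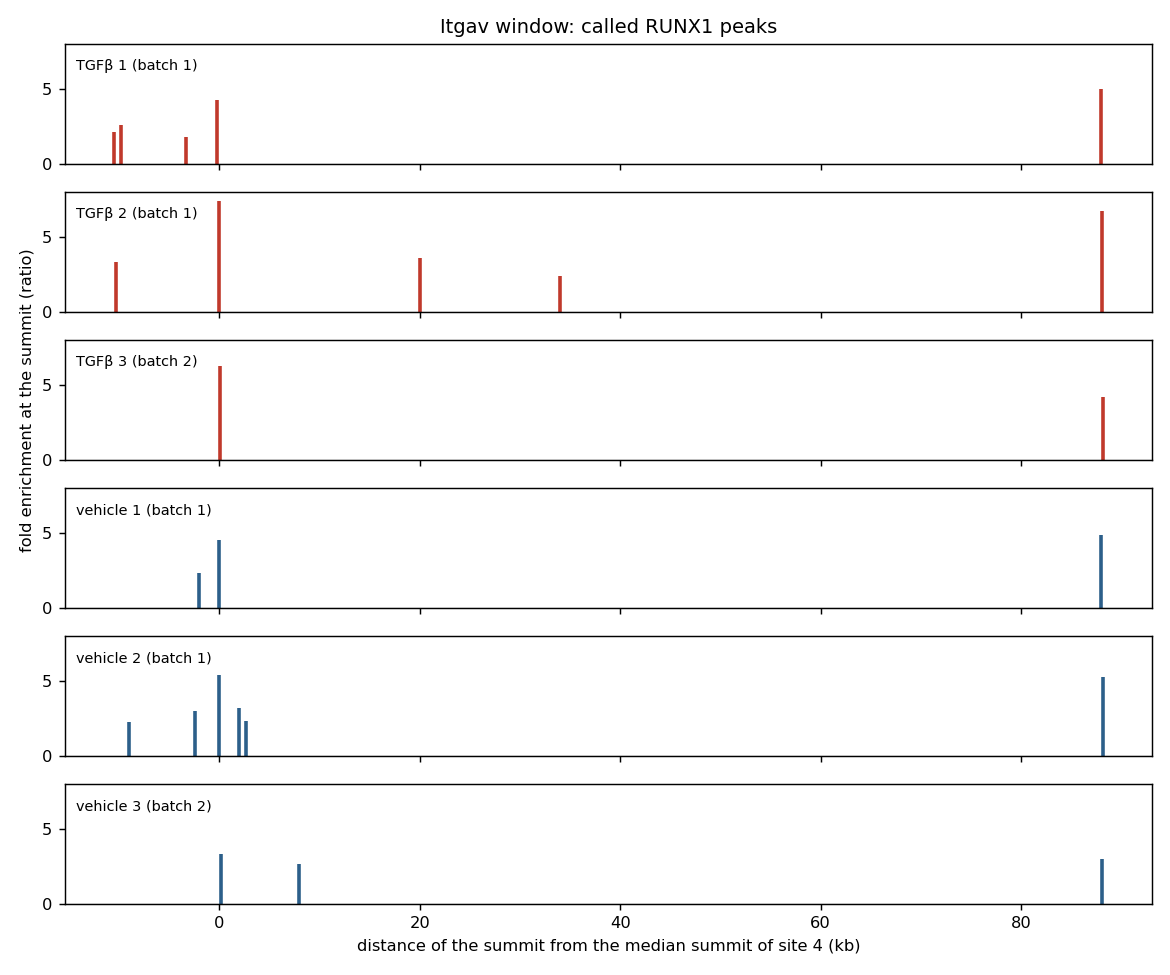
Each line is a called peak at Itgav, placed by the distance of its summit from the median summit of site 4 in kb, with the fold enrichment as its height and the 6 libraries in rows. Lines at site 4 and at site 9 stand in every row, with folds from 2.97 to 7.38 for the strongest peak of each list. Site 4 also holds weaker vehicle lines, the lowest at 2.31 in vehicle library 1.

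Within a list, the order of Itgb6 site 23 and Itgav site 4 differed between batches. Site 23 was picked as the Itgb6 site with the highest fold in batch 1, so its high rank there follows in part from that choice. In batch 1 Itgb6 site 23 ranked at the 99.2 and 99.5 percentile of −log10 q with TGFβ and at the 96.4 and 97.6 percentile with vehicle. Itgav site 4 ranked lower in each of these lists, at 70.6 and 85.7 with TGFβ and 80.0 and 86.0 with vehicle. In TGFβ library 3 the order was the reverse, with Itgav site 4 at 97.8 and Itgb6 site 23 at 60.5. The Itgb6 site ranked highest in that list was site 1, at 68.8, also below Itgav site 4. In vehicle library 3 Itgav site 4 stood at 83.4 and Itgb6 had no call. Itgb6 site 23 thus outranked both shared Itgav sites in all 4 batch 1 lists, under either treatment, and in neither batch 2 list.

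**Figure D5:**
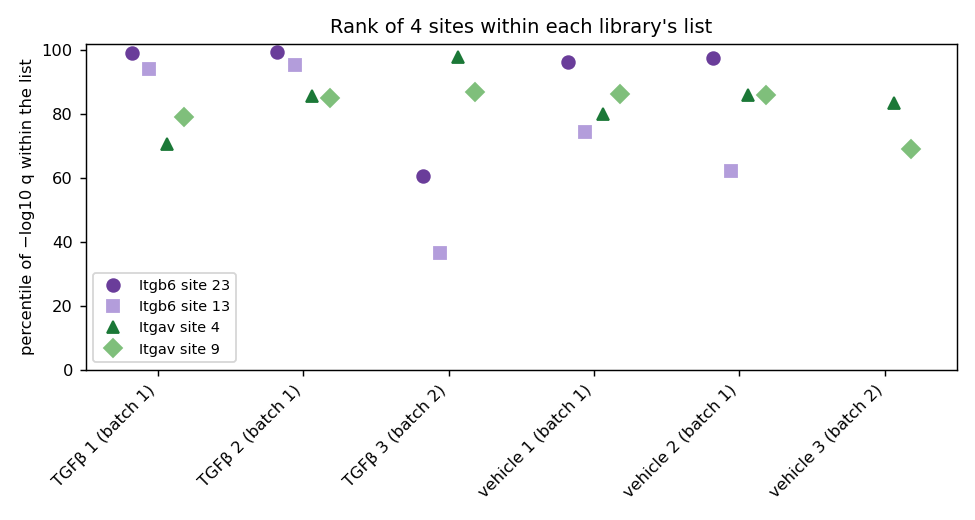
Points give the percentile of −log10 q within each library's list for Itgb6 sites 13 and 23 and Itgav sites 4 and 9. Itgb6 site 23 is at 96.4 or above in batch 1 and at 60.5 in TGFβ library 3, where Itgav site 4 is at 97.8, and neither Itgb6 site has a point in vehicle library 3.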

How the data were processed

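RUNX1 ChIP-seq peak lists of 6 libraries were used. Per the submitters' processing notes, the tools were DRAGEN, Trimmomatic, Bowtie2 2.5.2 and MACS2, and the build GRCm39 (mm39). Settings, control and threshold are not given in the sources used here. Each deposited list holds, per peak, a fold enrichment over background (a ratio), a score, a −log10 p-value and a −log10 q-value. The lowest −log10 q lay just above 1, so the authors' threshold was read as a q-value of 0.1. No read counts were in the lists, so no count model was fitted, and depth is unknown.

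Peaks with a summit in the windows were counted per library, and covered length was summed. Treatments were compared with exact two-sided permutation tests of the mean, over 20 labelings, or 12 within batches. A site is represented in a list by its peak with the highest −log10 q. Fragments at a summit were recovered by taking the fold as (pileup + 1)/(background + 1) and the p-value as a Poisson tail. Tiles were cut from the start of each chromosome. Code (Python 3.11.15, pandas 2.3.3, scipy 1.17.1) was tested on simulated data and recovered 1918 of 1918 planted sites. The planted sites lay well apart, so the joining of close sites and split peaks was not tested.

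Genes, windows and lists were chosen with earlier results of these data known. Named were the sites called in 2 or more libraries. Itgav sites 7 and 8, called in 1 library, were named after their values were seen. The planned list of other TGFβ activation genes, the genes most like Itgb6 and Itgav, and motifs at peaks need gene positions or sequence of GRCm39 and were not analysed here. RefSeq tables of GRCm38.p6 were used for neighbouring names and promoter sequences, and both genes matched by symbol.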

Additional observations from a re-analysis of the deposited data

How the results depend on the processing

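The difference in Itgb6 peaks (TGFβ minus vehicle, 10.3) kept its direction under 14 of 14 alternatives. It ran from 1.33 in lists of equal length to 17.7 without TGFβ replicate 3. The 1.33 came from batch 2 alone, 4 peaks against 0, since batch 1 had 9 and 8 peaks under both treatments. Without TGFβ replicate 2 the difference was 4.17 and without vehicle replicate 3 it was 6.17. Other large moves were 5.67 at a −log10 q of at least 5 and 4.33 at a fold of at least 5. Itgb6 covered length (11.7 kb) kept its direction under 14 of 14, from 5.28 to 19.6 kb, with 5.91 kb without TGFβ replicate 2. The difference in Itgav peaks (0) ran from -1.33 in lists of equal length to 1.33 in windows 50 kb wider, and from -0.5 to 1 when 1 library was left out. Itgav covered length (2.68 kb) turned to -0.39 kb with peaks no wider than 2000 bp, which by construction leaves out the broad TGFβ peaks of site 4, and ran from 1.2 to 4.55 kb when 1 library was left out. Sites called in all TGFβ and no vehicle lists (0 at both genes) ran from 0 to 3 at Itgb6 and from 0 to 1 at Itgav when 1 library was left out, the highest without TGFβ replicate 3. Sites called in all lists ran from 0 to 3 at Itgb6, the highest without vehicle replicate 3, and stayed at 2 at Itgav except 1 with summit windows of 200 bp. No paired analysis was possible because the replicate numbers used here follow deposit order and are not in the labels; batch is the block in the within-batch permutations. With 3 against 3 libraries no exact p can pass 0.05, so p-values say nothing about stability.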
